A study of Homo sapiens with 18 samples.

Results

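The G1 cyclins, their kinases CDK4 and CDK6 and a set of CDK inhibitors were examined by the RNA level of 10 genes named by symbol: CCND1, CCND2, CCND3, CCNE1, CCNE2, CDK4, CDK6, CDKN1B, CDKN1C and CDKN2B. Values were found for 9 of the 10, among 35933 genes with values, and CDKN2B was not analysed here. The 18 RNA sequencing libraries come from 3 human breast epithelial lines of the MCF10 series, with 3 libraries (a, b and c) of a negative CRISPR line and 3 of a line labelled METTL3 CRISPR knockdown in each. MCF10A is a spontaneously immortalized, non-tumorigenic line, MCF10AT1 is MCF10A with a stably integrated mutated HRas, and MCF10CA1h was obtained from MCF10AT1 through serial xenografts in mice, so all groups share the MCF10A background and both derived lines carry the mutated HRas. By the study's methods each CRISPR line was a clone grown out after transient transfection with Cas9 and a guide to METTL3 exon 1 or a negative guide, and 1 negative and 1 knockdown line per cell line were sequenced. The 3 libraries of a group therefore come from 1 clone. A difference between arms cannot be told apart from a difference between clones, and p-values measure the spread between libraries, which may be technical. The question behind the design was whether METTL3, the enzyme that writes m6A on mRNA, acts differently at successive stages of the model.

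Cells commit to a new division in G1. The D cyclins (CCND1, CCND2, CCND3) are made in response to growth factors and bind CDK4 or CDK6, and the resulting kinases phosphorylate the retinoblastoma protein RB1, which frees E2F factors to switch on genes of DNA replication. The E cyclins (CCNE1, CCNE2) are themselves E2F targets and activate CDK2 at the entry into S phase. CDKN1B (p27) and CDKN1C (p57) bind and restrain the cyclin-CDK complexes, and CDKN2B (p15) binds CDK4 and CDK6 directly. In mammary epithelium cyclin D1 is required for lobuloalveolar growth, and it is often in excess in breast tumours.

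METTL3 itself, the targeted gene, had normalized counts of 752, 686 and 459 in the MCF10A negative CRISPR libraries a, b and c and 939, 981 and 509.8 in the labelled knockdown libraries. In MCF10AT1 it had 968, 1016 and 805 against 816, 752 and 902. In MCF10CA1h it had 1022, 1102 and 1280.4 against 825, 745 and 843. The log2 difference was 0.33 (adjusted p = 0.618) in MCF10A and -0.17 (adjusted p = 0.707) in MCF10AT1, where the arms overlapped. It was -0.49 (adjusted p = 0.0234) in MCF10CA1h, so METTL3 RNA was shown lower in that line alone among the 3. By Western blot the study found METTL3 protein reduced in the knockdown candidates of each line, substantially in MCF10AT1 and moderately in MCF10CA1h. By real-time PCR it found a lesser decrease of METTL3 RNA, and by a colorimetric assay lower m6A, not significantly in MCF10A. In MCF10A the difference found here (0.33, not called) had the opposite sign to the study's real-time PCR, which also measures RNA, and the reason was not tested. RNA level is a different measure from protein, so these values do not show whether the knockdown worked. The arms are named by their labels throughout. Normalized counts per library summed to between 21347352 and 31681834, a scaled sum from which the number of reads behind a gene cannot be read. The epithelial markers (10 genes) summed to 26074 to 55152 in the MCF10AT1 labelled knockdown libraries and to 113117 to 162898 in their negative CRISPR libraries. CDH1, the cadherin of epithelial junctions, was at 11.6 to 79.2 against 2105 to 6138, while a list of 10 fibroblast markers summed to 3105 to 4971 against 748 to 1083, with COL1A2 and LUM under 10 in all 6 libraries. The endothelial genes CDH5 and VWF and the leukocyte genes PTPRC, CD3E and LYZ were under 10 in all groups, but their lists were not low throughout. With labelled knockdown first, the leukocyte list summed to 1745 to 2342 against 518 to 1381 in MCF10AT1. It was 47 to 99 against 108 to 277 in MCF10A and 199 to 467 against 608 to 672 in MCF10CA1h. For the same lines in that order, the endothelial list summed to 382 to 644, 339 to 536 and 46 to 77, against 233 to 867, 56 to 237 and 101 to 140. Growth state also varied within groups: MKI67, a marker of cycling cells, had 1144, 228 and 40.2 in the MCF10A negative CRISPR libraries and ranged from 708 to 6527 in the MCF10AT1 labelled knockdown libraries. The part of these differences in the results for the cyclins, kinases and inhibitors was not tested.

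Because METTL3 methylates adenosines in a GGAC context, the canonical transcripts (GENCODE v44, hg38) were searched on the sense strand for GGACT, the core in which m6A is most often found. The match nearest to the last coding base is printed for 8 genes, as 21 bases of transcript with the core in capitals, since these are the letters that a change in METTL3 could bear on directly.
CCND1: tgtgacccGGACTgcctccgg
CCND2: tcctaccaGGACTcaagagac
CCND3: actgaagtGGACTgcctgcgg
CCNE1: gacctaagGGACTcccacaac
CDK4: ggaagaagGGACTttcctgca
CDK6: acgtgattGGACTcccaggag
CDKN1B: ttaacccgGGACTtggagaag
CDKN1C: ttcatcgcGGACTctggggaa
The sites of CCND1 (adenosine at chromosome 11, 69651119, plus strand), CCND3 (chromosome 6, 41936106, minus strand) and CDK6 (chromosome 7, 92618198, minus strand) lie in coding sequence and their windows cross an exon junction, and the CCND1 and CCND3 windows are identical at 15 of 21 bases. That of CDKN1B (chr12:12717960-12717980, plus strand) is also coding. Those of CCND2 (chr12:4301137-4301157, plus), CCNE1 (chr19:29824047-29824067, plus), CDK4 (chr12:57748148-57748168, minus) and CDKN1C (chr11:2883419-2883439, minus) lie in the 3′UTR. The number of matches per transcript was 6 in CDK6, 5 in CCND2, 3 each in CCND1 and CCND3, 2 each in CCNE1 and CCNE2 and 1 each in CDK4, CDKN1B and CDKN1C. Per kilobase of transcript this was 0.415 in CDKN1B at the low end and 1.48 in CCND3 at the high end, against a median of 0.924 over 20046 canonical transcripts, 87.8% of which hold at least 1 match. The search is a description of letters, and whether any of these adenosines was methylated was not analysed here.

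The 9 genes differed in how much they moved across the 6 groups. CCND1, the main cyclin of mammary epithelium, varied least: its highest group mean was 1.29 times its lowest. For CDKN1B the ratio was 2.43, for CCNE2 3.12, for CCND3 3.37, for CDK4 3.39, for CCNE1 3.61, for CDK6 5.69 and for CDKN1C 16.5. CCND2 went from 0 in all 3 MCF10A labelled knockdown libraries to a mean of 604 ± 15.1 (SD, n = 3) in the MCF10CA1h negative CRISPR libraries. Per kilobase of transcript, the scale on which genes can be set beside each other, CDK4 was above CDK6 in every group, from 1374 ± 279 against 125 ± 11.6 in MCF10A negative CRISPR libraries to 4665 ± 367 against 116 ± 12.2 in MCF10CA1h (mean ± SD, n = 3, normalized count per kb). On that scale the group means of CCND1 lay between 919 and 1186 and those of CCND3 between 879 and 2962. The E cyclins and the inhibitors were lower, with CCNE1 between 58.8 and 213, CCNE2 between 14.7 and 45.8, CDKN1B between 87.8 and 214 and CDKN1C between 3.57 and 58.8.

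**Figure D1:**
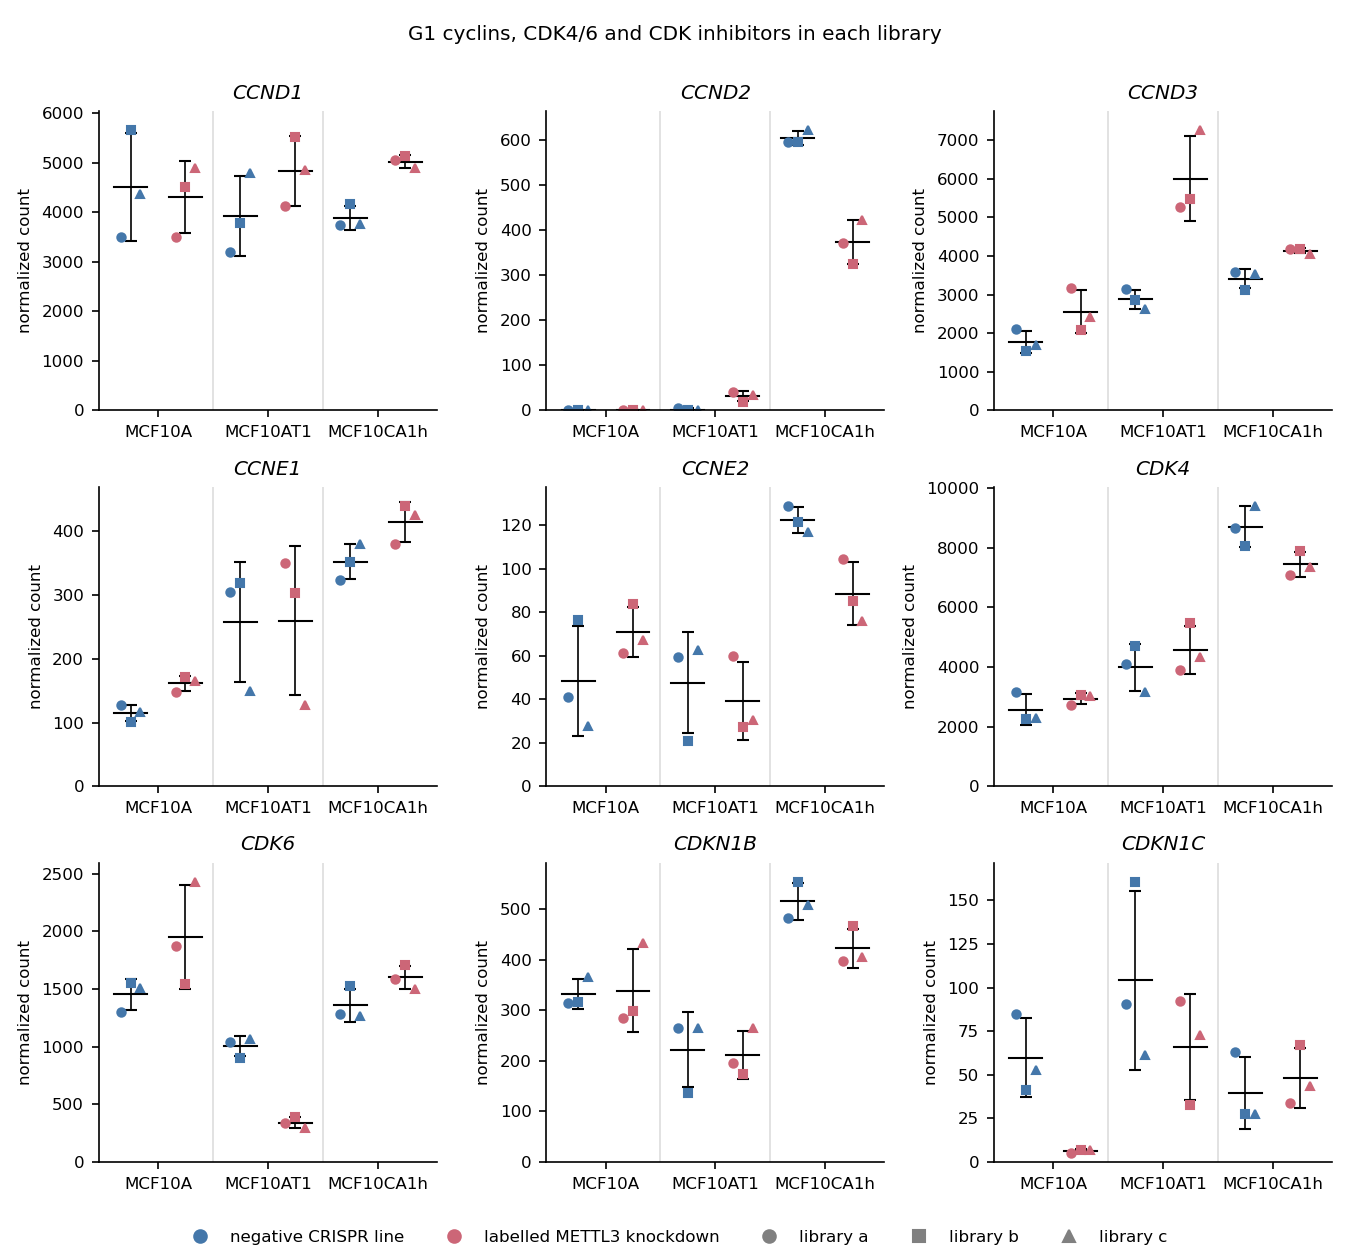
Normalized count of each gene (y axis, linear from 0, a scale per panel) in the 18 libraries, with the 3 lines along the x axis, blue points for negative CRISPR and red for labelled knockdown libraries, marker shapes for libraries a, b and c, and bars for the mean ± SD of 3. The CCND1 groups lie at like heights, CCND2 is near 0 outside MCF10CA1h, and the MCF10AT1 labelled knockdown libraries stand low in CDK6 (297 to 393) and high in CCND3 (5269 to 7266).

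The negative CRISPR lines were compared first, since the study reads the 3 lines as stages. Between MCF10CA1h and MCF10A, 5 of the 9 genes passed the test, all higher in MCF10CA1h (CCND2, CCND3, CCNE1, CCNE2 and CDK4), and the other 4 did not (CCND1, CDK6, CDKN1B and CDKN1C), where 37.8% of all tested genes passed the test, 19.0% higher and 18.8% lower. All tests are limma's on log2 of the normalized count plus 1, with p adjusted over all tested genes by the Benjamini-Hochberg method and called under 0.05. In bulk libraries, fewer cells expressing a gene and less RNA per cell cannot be told apart.

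CCND3, the D cyclin shared by most tissues, had 2102, 1551 and 1689 in MCF10A, 3136, 2865 and 2635 in MCF10AT1 and 3579, 3124 and 3533 in MCF10CA1h. MCF10A was below both other lines in every library, and MCF10AT1 and MCF10CA1h overlapped. The log2 difference from MCF10A was 0.70 in MCF10AT1 (95% CI 0.30 to 1.10, adjusted p = 0.0201) and 0.95 in MCF10CA1h (0.55 to 1.34, adjusted p = 0.0035). CCND1 had 3506, 5666 and 4372, then 3202, 3791 and 4793, then 3736, 4175 and 3771 in the 3 lines, and they overlapped. Its differences from MCF10A were -0.19 in both lines, with intervals from -0.69 to 0.31. CCND2 had 0.95, 0 and 0.94 in MCF10A and 4.72, 0 and 0.86 in MCF10AT1 but 596, 595 and 622 in MCF10CA1h. The fitted log2 difference of MCF10CA1h from MCF10A was 8.60 (adjusted p = 5.4e-05) and depends on the pseudocount, being 9.22 with 0.5 and 6.76 with 5, both called. CCND2 reached the mean needed for a test by its MCF10CA1h libraries alone.

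Of the E cyclins, CCNE1 had 127, 102 and 116 in MCF10A, 305, 319 and 149 in MCF10AT1 and 324, 352 and 379.85 in MCF10CA1h. Its MCF10A libraries were below those of both other lines. The log2 difference from MCF10A was 1.08 in MCF10AT1 (95% CI 0.39 to 1.78, adjusted p = 0.0304) and 1.61 in MCF10CA1h (0.92 to 2.30, adjusted p = 0.00391). CCNE2 had 41.2, 76.4 and 27.5 in MCF10A, 59.4, 21.01 and 62.6 in MCF10AT1, and 129, 121 and 117 in MCF10CA1h, which stood above both. MCF10CA1h exceeded MCF10A by 1.44 (0.34 to 2.55, adjusted p = 0.0431), a call lost in 6 of the 9 fits that left out a library (MCF10A a or c, MCF10AT1 a, and MCF10CA1h a, b or c) and with an adjusted p of 0.0568 against MCF10AT1.

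CDK4 had 3164, 2239.7 and 2286 in MCF10A, 4101, 4717 and 3151 in MCF10AT1 and 8654, 8038 and 9406 in MCF10CA1h, the highest in each of its libraries. MCF10CA1h exceeded MCF10A by a log2 difference of 1.78 (95% CI 1.30 to 2.25, 3.43-fold, adjusted p = 4.3e-04) and MCF10AT1 by 1.14 (0.67 to 1.61, adjusted p = 0.00549). CDK6 had 1301, 1555 and 1509.5 in MCF10A, 1044, 905 and 1067 in MCF10AT1 and 1286, 1521 and 1264 in MCF10CA1h. It was lower in MCF10AT1 than in MCF10A by 0.53 (-0.92 to -0.14, adjusted p = 0.0477), and MCF10CA1h differed from MCF10A by -0.10 (-0.49 to 0.29, adjusted p = 0.676). In all, 4 of 9 genes passed the test between MCF10AT1 and MCF10A (CCND3, CCNE1 and CDK4 higher, CDK6 lower), where 28.1% of all genes did, 13.3% higher and 14.7% lower. CDK4 there differed by 0.64 with overlapping libraries (adjusted p = 0.0489). These calls were thin: CCNE1, CDK4 and CDK6 were each lost in 7 of 9 fits that left out a library (MCF10A b or c, MCF10AT1 a or b, or any 1 MCF10CA1h library), and CCND3 without MCF10A b, MCF10A c or MCF10AT1 a (adjusted p from 0.0712 to 0.0904). With libraries scaled to equal sums 1 of the 4 calls was left, that of CCNE1, and without the filter or without the trend 2 were.

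Among the inhibitors, CDKN1B had 313, 315 and 365 in MCF10A, 265, 137 and 265 in MCF10AT1 and 483, 554 and 508 in MCF10CA1h, and the 3 lines did not overlap. MCF10CA1h was above MCF10AT1 by a log2 difference of 1.27 (95% CI 0.65 to 1.89, adjusted p = 0.0117), though not without MCF10CA1h library b (adjusted p = 0.0548), and differed from MCF10A by 0.64 (0.01 to 1.257, adjusted p = 0.0971). This is the growth inhibitor p27, and with CDK4 and CCND2 it made up the 3 of 9 genes that were higher in MCF10CA1h than in MCF10AT1, where 21.8% of all genes passed, 11.0% higher and 10.8% lower. CDKN1C had 85.0, 41.4 and 52.6, then 90.7, 161 and 61.1, then 63.3, 27.8 and 27.3, and no pair of lines passed the test. Leaving out MCF10AT1 library c added CCNE2 (adjusted p = 0.0293) and CDKN1C (adjusted p = 0.0273) to the comparison of MCF10CA1h with MCF10AT1.

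**Figure D2:**
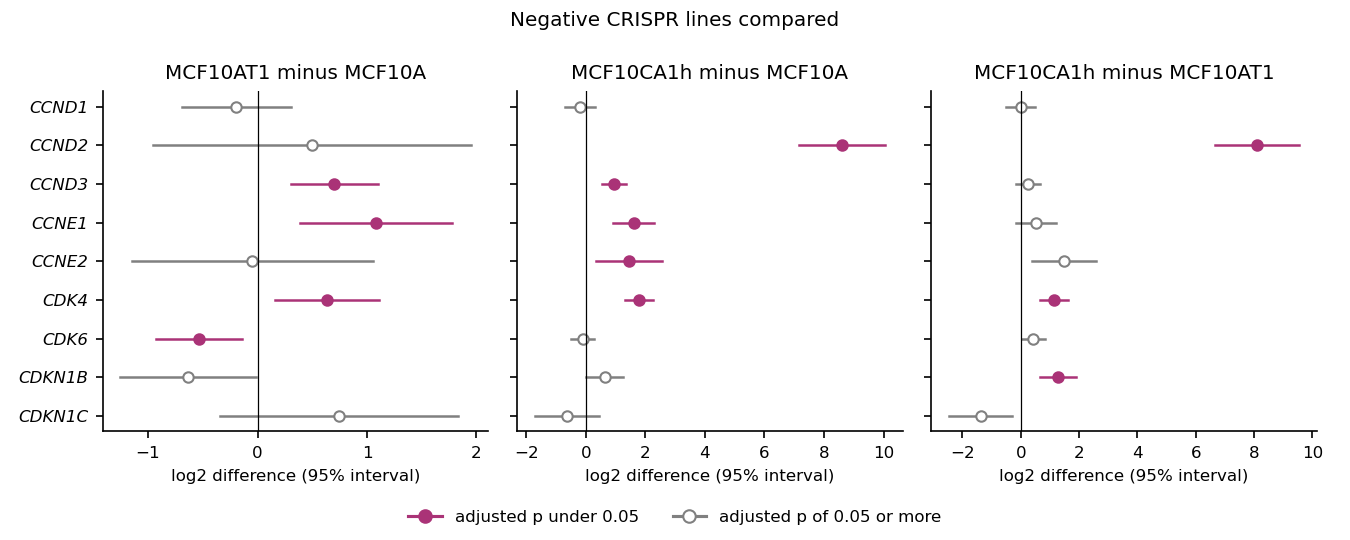
Log2 difference of each gene between negative CRISPR lines (x axis, 3 libraries against 3, with its 95% interval), 1 panel per pair of lines, with filled points for an adjusted p under 0.05 and an x scale of its own in each panel. CDK4 stands right of 0 in all 3 panels, and CCND2 is far right in both panels with MCF10CA1h.

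In MCF10A the labelled knockdown libraries differed from the negative CRISPR libraries in 1 of the 8 genes tested, CDKN1C, where 2.65% of all genes passed, 1.16% higher and 1.49% lower. CDKN1C, the inhibitor p57, had 85.0, 41.4 and 52.6 in the negative CRISPR libraries and 5.10, 6.97 and 6.93 in the labelled knockdown libraries, so that the arms were far apart. It fell by 2.996 on the log2 scale (95% CI -3.96 to -2.03, adjusted p = 0.0143). The call was lost without negative CRISPR library b (adjusted p = 0.0501) or labelled knockdown library a (0.0633) or c (0.0666) and without the filter on low values (0.0759), while the difference stayed between -3.22 and -2.71. With the library letter as a block it was kept (adjusted p = 0.0105). CDKN1C reached the filter on low values by its negative CRISPR libraries (group means of 59.7 against 6.33).

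The cyclins and kinases of MCF10A did not pass the test. CCND2 was listed at 0 in all 3 labelled knockdown libraries and was under the level needed for a test. CCNE1 had 148, 171 and 166 in the labelled knockdown libraries, all above the negative CRISPR libraries (102 to 127), with a log2 difference of 0.49 (95% CI -0.03 to 1.01, adjusted p = 0.301). CCND3 had 3165, 2080.2 and 2426 with a difference of 0.51 (0.06 to 0.97, adjusted p = 0.216), CCNE2 differed by 0.65 (-0.28 to 1.59, adjusted p = 0.45) and CDK6 by 0.40 (-0.04 to 0.84, adjusted p = 0.319), with overlapping arms in each. CDK4 (0.21, from -0.18 to 0.61), CCND1 (-0.05, from -0.54 to 0.43) and CDKN1B (0.01, from -0.50 to 0.51) lay closer to 0. The mean log2 level of the 8 mitotic genes went from 5.15 to 9.38 in the negative CRISPR libraries and from 8.15 to 9.23 in the labelled knockdown libraries, a spread between replicates that was not tested as a part of these results. The epithelial markers summed to 258029 to 305069 in the MCF10A labelled knockdown libraries against 176282 to 213959. The fibroblast list summed to 1695 to 4711 (median 4482) against 1996 to 2427, and the part of these shifts was not tested.

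In MCF10AT1, 3 of 9 genes passed the test between the arms, where 13.0% of all genes did, 7.07% higher and 5.96% lower. CDK6, the kinase partner of D cyclins, had 1044, 905 and 1067 in the negative CRISPR libraries and 336, 393 and 297 in the labelled knockdown libraries, which were all lower. It fell by 1.56 on the log2 scale (95% CI -2.17 to -0.94, adjusted p = 0.00684), to 0.340 of its level. All 6 fits that left out a library kept the call (-1.66 to -1.46), as did the library letter as a block (adjusted p = 0.00177). CDK4 overlapped between the arms and was not called, with 3891, 5463 and 4322 against 3151 to 4717 and a difference of 0.20 (-0.43 to 0.83, adjusted p = 0.688). The ratio of the CDK4 to the CDK6 normalized count was therefore 11.6, 13.9 and 14.5 in the labelled knockdown libraries and 3.93, 5.21 and 2.95 in the negative CRISPR libraries.

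CCND3 moved the other way. It had 3136, 2865 and 2635 in the MCF10AT1 negative CRISPR libraries and 5269, 5468 and 7266 in the labelled knockdown libraries, with no overlap. It rose by 1.05 on the log2 scale (95% CI 0.47 to 1.63, 2.07-fold, adjusted p = 0.0304), a call lost without negative CRISPR library a (adjusted p = 0.108) or labelled knockdown library a (0.0682), b (0.126) or c (0.0843), with libraries scaled to equal sums (0.88, adjusted p = 0.0631) and without limma's intensity trend (0.0672). With the library letter as a block the CCND3 call was kept (adjusted p = 0.0101). CCND1 had 4125, 5531 and 4861 against 3202 to 4793, a difference of 0.31 (-0.31 to 0.93, adjusted p = 0.504). CCND3 made up 55.8%, 49.6% and 59.7% of the summed D cyclin normalized counts in the labelled knockdown libraries and 49.4%, 43.0% and 35.5% in the negative CRISPR libraries, each gene counted unscaled for length. CCND2 had 40.5, 19.1 and 34.6 against 4.72, 0 and 0.86, a fitted difference of 3.82 (adjusted p = 0.0208) that was 4.32 with a pseudocount of 0.5 and 2.42 with 5. Its call was lost without labelled knockdown library a (adjusted p = 0.082), b (0.0667) or c (0.0631) and without the filter (0.102). With the library letter as a block it was kept (adjusted p = 0.00643). CCND2 reached the filter on low values here by its labelled knockdown libraries alone (group means of 31.4 against 1.86), and further limits on CCND2 follow.

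The E cyclins and inhibitors of MCF10AT1 did not pass. CCNE1 had 350.2, 303 and 127 in the labelled knockdown libraries against 305, 319 and 149, and library c was the lowest of both arms. CCNE2 (-0.21, 95% CI -1.59 to 1.16), CCNE1 (-0.03, -1.16 to 1.10), CDKN1B (-0.03, -0.92 to 0.86) and CDKN1C (-0.66, -1.94 to 0.61) had wide intervals. CDK6, CCND3 and CCND2 were called in the libraries in which the epithelial markers were low and COL3A1 and THY1 high (385 to 1208 and 1199.5 to 2557, against at most 2.25), and the part of that shift was not tested.

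In MCF10CA1h, 2 of 9 genes passed the test between the arms, where 12.8% of all genes did, 7.91% higher and 4.85% lower. CCND1, the cyclin most tied to breast tumours, had 3736, 4175 and 3771 in the negative CRISPR libraries and 5061, 5129 and 4889 in the labelled knockdown libraries. The arms did not overlap, and it rose by 0.37 on the log2 scale (95% CI 0.18 to 0.56, 1.29-fold, adjusted p = 0.0203). The call was lost without negative CRISPR library a (adjusted p = 0.0966) or c (0.0753) or labelled knockdown library b (0.0675), without the filter (0.0623) or the trend (0.0855), and in the fit of all 18 libraries (0.577). CCND2 had 596, 595 and 622 in the negative CRISPR libraries and 370.4, 325 and 422 in the labelled knockdown libraries. It fell by 0.70 (-1.001 to -0.41, to 0.614 of its level, adjusted p = 0.0075), and each of the 6 fits without a library kept the call, although the fits without the filter (adjusted p = 0.0604) and of all 18 libraries (0.788) did not.

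The other 7 genes of MCF10CA1h did not pass, and 5 of them had arms without overlap. With CCND1 and CCND2 that made 7 of 9 genes without overlap, where 32.7% of all tested genes had none. In MCF10A only CCNE1 and CDKN1C had arms without overlap, against 23.9% of all tested genes. In MCF10AT1 only CCND2, CCND3 and CDK6 did, against 32.8%. CCND3 had 4176, 4179.9 and 4057 against 3124 to 3579 (0.28, 95% CI 0.08 to 0.48, adjusted p = 0.0689) and CCNE1 had 380.2, 440.3 and 426 against 324 to 379.85 (0.24, -0.06 to 0.54, adjusted p = 0.281), both above without overlap. CCNE2 had 104, 85.0 and 76 against 117 to 129 (-0.48, -0.93 to -0.02, adjusted p = 0.158), below without overlap. CDK4 had 7068, 7889.9 and 7367 against 8038 to 9406 (-0.22, -0.43 to -0.02, adjusted p = 0.144) and CDKN1B had 397, 466 and 404 against 483 to 554 (-0.29, -0.57 to 0.00, adjusted p = 0.177), also below. Scaling libraries to equal sums brought CDK4 past the threshold (-0.28, adjusted p = 0.0439). CDK6 (0.24, 0.00 to 0.48) and CDKN1C (0.34, -0.55 to 1.22) overlapped between the arms. The epithelial markers summed to 416119 to 445279 in the labelled knockdown libraries against 315198 to 343548, and the fibroblast list to 2925 to 3007 against 1641 to 2022, and their part was not tested.

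**Figure D3:**
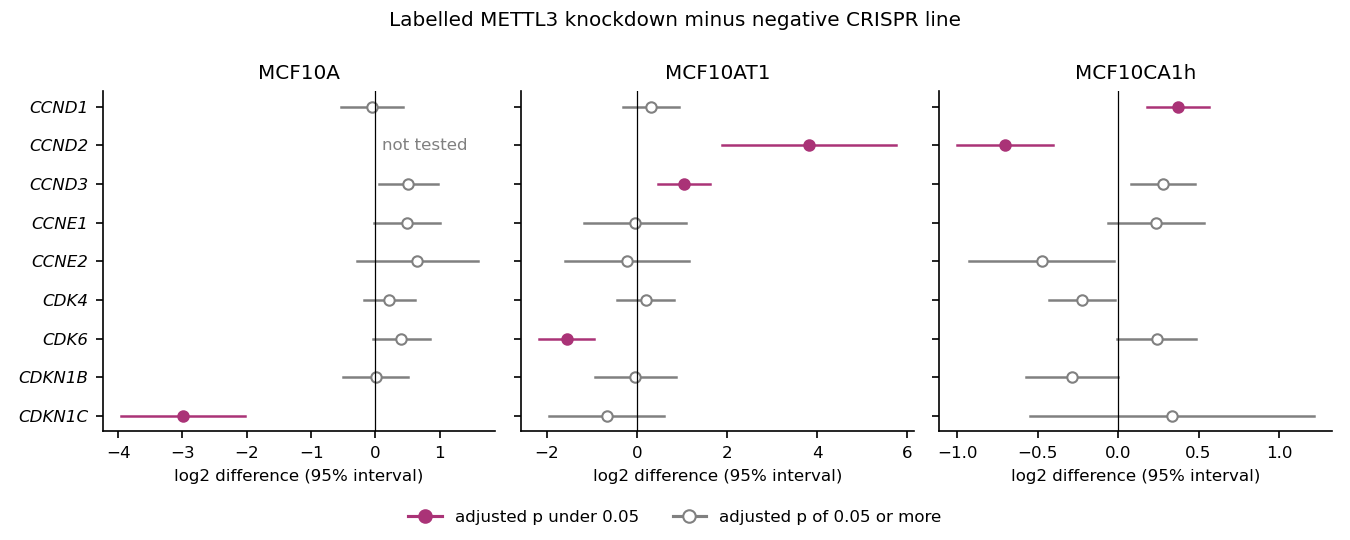
Log2 difference of labelled knockdown minus negative CRISPR libraries for each gene (x axis, 3 libraries against 3, with its 95% interval), 1 panel per line, with filled points for an adjusted p under 0.05 and an x scale of its own in each panel. The called genes differ by line: CDKN1C in MCF10A, CCND2, CCND3 and CDK6 in MCF10AT1, and CCND1 and CCND2 in MCF10CA1h.

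The CCND2 values need a limit of their own. CCND2 (chr12:4269771-4305353, plus strand) shares 4 exons on the same strand with ENSG00000285901, a protein-coding gene that runs from 4273762 to 4405490, so reads in those exons could be split between them. ENSG00000285901 had 290, 224 and 215 in the MCF10CA1h negative CRISPR libraries and 296, 363 and 323 in the labelled knockdown libraries, higher where CCND2 was lower (0.44, 95% CI 0.07 to 0.81, adjusted p = 0.118). Summing both genes, an alternative chosen after the data were seen, gave 886, 819 and 836 against 666, 688 and 745. The arms still did not overlap, and the sum differed by -0.28 (-0.52 to -0.04, adjusted p = 0.127), which is no call. In MCF10AT1 the sum was 214, 39.7 and 86.2 against 229, 69.9 and 76.3, a difference of 0.24 (adjusted p = 0.859). ENSG00000285901 alone had 209, 39.7 and 85.4 against 188, 50.7 and 41.7 there (SD 87.6 and 82.0). That spread exceeds the CCND2 counts of 40.5, 19.1 and 34.6, so the MCF10AT1 sum cannot show whether CCND2 rose. Between the negative CRISPR lines the sum remained higher in MCF10CA1h, by 4.19 against MCF10A (2.94 to 5.44, adjusted p = 7.6e-04) and by 3.21 against MCF10AT1 (1.96 to 4.47, adjusted p = 0.00414). The difference of the lines is thus called with either way of counting. That of the MCF10CA1h arms is called for CCND2 alone but not for the sum, and for the MCF10AT1 arms the sum cannot decide.

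**Figure D4:**
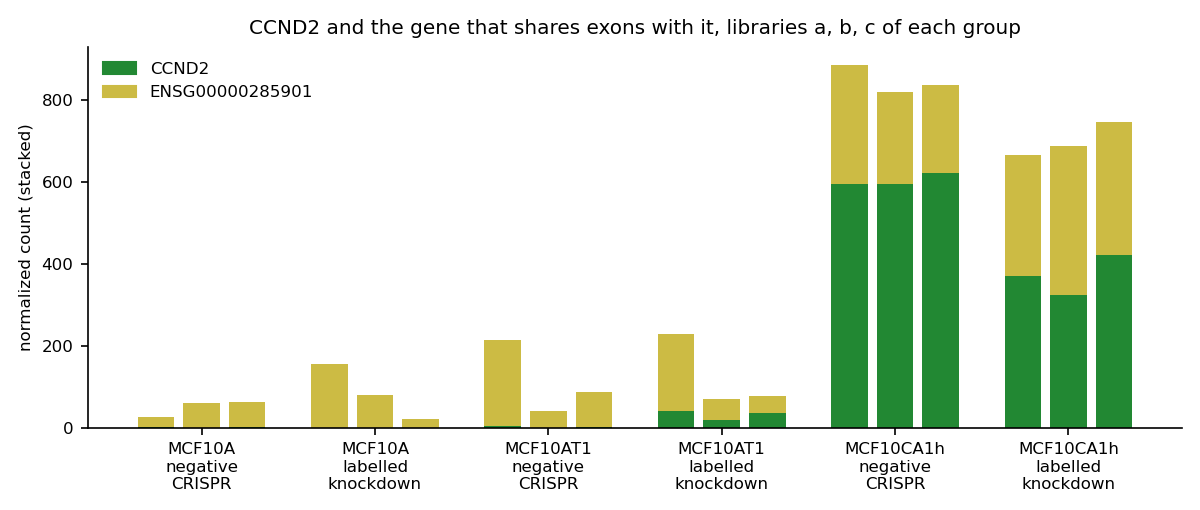
Stacked bars of the normalized counts of CCND2 (green) and the overlapping gene ENSG00000285901 (yellow) in libraries a, b and c of each group, so that the bar's height is their sum. In MCF10CA1h CCND2 is lower in the labelled knockdown libraries and ENSG00000285901 higher, and the bars reach 819 to 886 against 666 to 745.

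Whether the difference between arms itself differed between lines was tested by interaction contrasts in a fit of all 18 libraries. For CDK6 the difference in MCF10AT1 was lower than that in MCF10A by 1.96 on the log2 scale (95% CI -2.49 to -1.43, adjusted p = 2.9e-05) and lower than that in MCF10CA1h, the contrast of MCF10CA1h minus MCF10AT1 being 1.80 (1.27 to 2.33, adjusted p = 7.1e-05). All 18 fits without a library kept both calls, which set CDK6 of MCF10AT1 apart from CDK6 of the other lines. For CDKN1C, the difference in MCF10A was lower than in MCF10AT1 by 2.33 (0.90 to 3.77, adjusted p = 0.0204) and lower than in MCF10CA1h by 3.33 (1.90 to 4.77, adjusted p = 0.00791). The first was lost without MCF10A negative CRISPR library a (adjusted p = 0.0539) or MCF10AT1 labelled knockdown library a (0.0519). The CCND3 difference was larger in MCF10AT1 than in MCF10CA1h, with a contrast of -0.77 (-1.30 to -0.24, adjusted p = 0.0428), which was lost in 11 of 18 fits without a library (adjusted p from 0.0507 to 0.0973): MCF10A c of either arm, MCF10AT1 negative CRISPR c, MCF10AT1 labelled knockdown b or c, or any MCF10CA1h library. CCND2 gave contrasts of 4.46 (MCF10AT1 minus MCF10A, adjusted p = 3.7e-04) and -4.52 (MCF10CA1h minus MCF10AT1, adjusted p = 3.6e-04), which became -0.26 (adjusted p = 0.872) and -0.52 (adjusted p = 0.754) for the sum with the overlapping gene. In MCF10A CCND2 was at 0 to 0.95 and was not tested within the line, so the first contrast sets MCF10AT1 against a floor. CCND2 reached the filter of the 18-library fit by its level in MCF10CA1h (group means of 604 and 373). It is counted below with this limit. In all, 3 of 9 genes differed between MCF10AT1 and MCF10A, 1 between MCF10CA1h and MCF10A and 3 between MCF10CA1h and MCF10AT1, where 21.6%, 5.34% and 18.2% of all genes did. Split into higher and lower, those shares were 11.2% and 10.5%, 3.65% and 1.69%, and 9.67% and 8.51%. These contrasts share libraries with each other and with the comparisons within lines. CCND1 rose in MCF10CA1h, but its contrasts of 0.42 against MCF10A (adjusted p = 0.493) and 0.06 against MCF10AT1 (adjusted p = 0.913) do not show a difference between lines.

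The G1 genes act on a pathway that was followed with 62 further genes with values: other CDK inhibitors, CDK2 and its activators, pocket proteins, E2F and DP factors, ubiquitin ligase parts, E2F targets of S phase entry, mitotic genes and upstream factors. In MCF10CA1h, 13 of the 62 changed between the arms (21%, against 12.8% of all genes), 1 higher and 12 lower. The one that rose was CDKN1A (p21), the inhibitor next in kin to CDKN1B and CDKN1C, with 11391 to 12416 against 5842 to 7287 (log2 difference 0.88, 95% CI 0.66 to 1.10, adjusted p = 4.8e-04). E2F1 (-0.42, adjusted p = 0.0231) and E2F2 (-1.08, adjusted p = 0.00258) fell, as did SKP2, the ligase part that marks p27 for degradation (-0.78, adjusted p = 0.00632). Of the 15 E2F targets 8 fell and 0 rose, among them the replicative helicase genes MCM5 (-0.54, adjusted p = 0.0154), MCM2 (-0.52, adjusted p = 0.00742) and MCM3 (-0.51, adjusted p = 0.00563). The list's median was -0.42 and that of all genes -0.02. MKI67 fell by 0.63 (adjusted p = 0.00256), with 6711 to 7994 against 10434 to 11634, while CCNA2 (-0.43, adjusted p = 0.0758), CDK2 (0.08) and RB1 (-0.03) were not called. The count of 13 became 3 without the filter on low values, 6 without the intensity trend, 1 in the fit of all 18 libraries and 8 without negative CRISPR library a.

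In MCF10A, 0 of the 62 passed limma's test against 2.65% of all genes, with 2839 of 15416 genes at an unadjusted p under 0.05 there. The difference was positive in 42 of the 62, with a median of 0.26, and in 8 of 8 mitotic genes. CDKN1A differed by -0.30, CDK2 by -0.02, RB1 by 0.01, E2F1 by 0.72, SKP2 by 0.61, CCNA2 by 0.78 and MKI67 by 1.23, none of them called. Leaving out negative CRISPR library a, whose mitotic genes were the highest, brought 8 genes past the threshold. With the library letter as a block, 3 passed: FOSL1 (-0.75, adjusted p = 0.0328) and SMAD3 (-0.67, adjusted p = 0.0399) lower and FOXO1, a factor that activates CDKN1B, higher (0.63, adjusted p = 0.0495). The block raised the calls over all genes from 409 to 1172.

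In MCF10AT1, 3 of the 62 passed (4.84%, against 13.0% of all genes), all upstream factors: JUN, an AP-1 factor that induces CCND1, was lower (579 to 1008 against 1963 to 4978, log2 difference -2.26, adjusted p = 0.00822), and TGFB1 (1.51, adjusted p = 0.0255) and SMAD3 (1.503, adjusted p = 0.0136), the ligand and effector of a pathway that arrests epithelial cells in G1, were higher. CDKN1A (-0.49), CDK2 (-0.48), RB1 (-0.63), E2F1 (-0.28), SKP2 (-0.13), CCNA2 (-0.12) and MKI67 (0.10) were not called. With the library letter as a block 8 passed, the additions being CDKN2C (1.71, adjusted p = 0.00983) and TGFB2 (1.64, adjusted p = 0.0198) higher and PCNA (-1.47, adjusted p = 0.0017), FBXW7 (-1.25, adjusted p = 0.0282) and E2F6 (-0.91, adjusted p = 0.0354) lower. Over all genes the block took the calls from 2091 to 3939. Without negative CRISPR library a, labelled knockdown library a or labelled knockdown library b the 3 became 1, and without labelled knockdown library c they became 5.

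Between the negative CRISPR lines, MCF10CA1h was above MCF10A in 35 of the 62 and below in 6 (66.1% called, against 37.8% of all genes), with 15 of 15 E2F targets and 8 of 8 mitotic genes higher. CDK2, the partner of the E cyclins, was 2.32 higher (adjusted p = 3.8e-04), SKP2 1.92 (adjusted p = 0.00242), E2F1 3.92 (adjusted p = 0.00147), CCNA2 3.999 (adjusted p = 0.00253) and MKI67 5.66 (adjusted p = 0.00168), while CDKN1A was lower (-0.80, adjusted p = 0.015) and RB1 differed by -0.22 (adjusted p = 0.792). MCF10AT1 was above MCF10A in 17 and below in 3 (32.3% called), where 28.1% of all genes were called, 13.3% higher and 14.7% lower. There 6 of 15 E2F targets and 6 of 8 mitotic genes were higher. MCF10CA1h was above MCF10AT1 in 17 and below in 1 (29%), where 21.8% of all genes were called, 11.0% higher and 10.8% lower. The higher CCNE1, CCNE2 and CDK4 of MCF10CA1h thus stood beside a higher level of genes of the cycling cell. The part of the share of cycling cells was not tested.

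**Figure D5:**
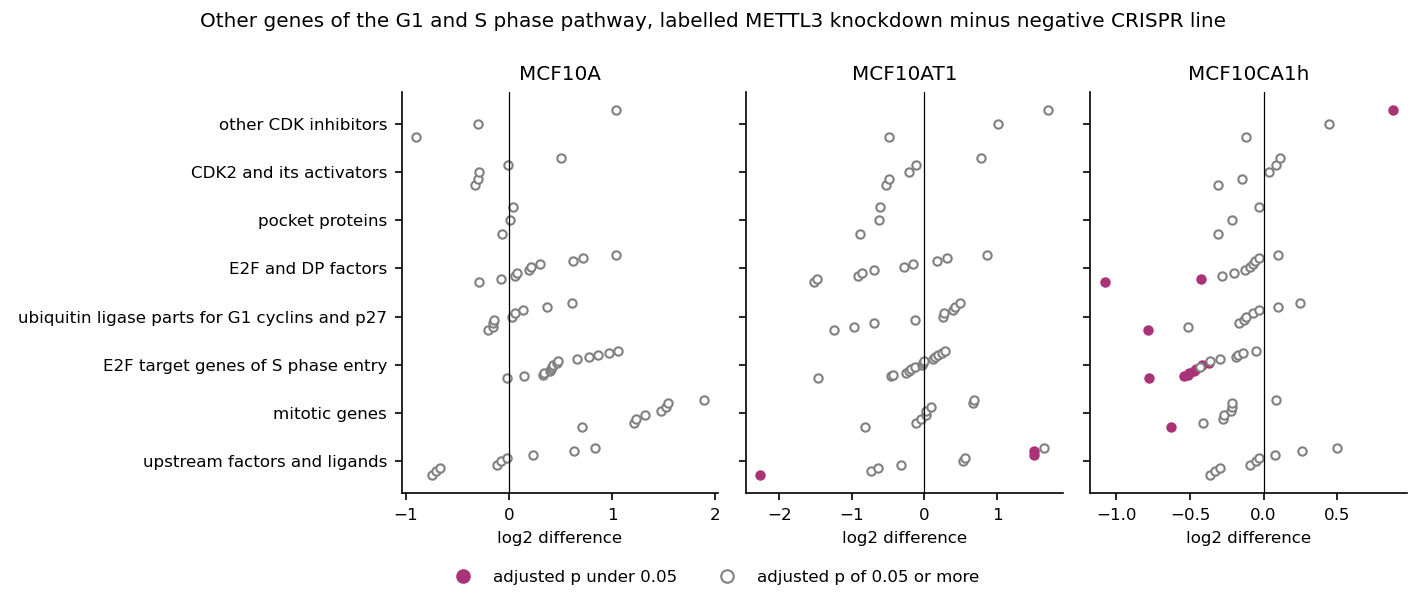
Log2 difference of labelled knockdown minus negative CRISPR libraries for the genes of each pathway list (1 point per gene, x axis with a scale of its own in each panel, lists along the y axis) in the 3 lines, with filled points for an adjusted p under 0.05. The E2F targets lie left of 0 in MCF10CA1h, where 8 of 15 passed the test, and no gene of these lists passed in MCF10A.

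Within groups, the level of several of the 9 genes ran with the mitotic genes across the 18 libraries, after the group means were taken off: Pearson's r with the mean log2 level of the mitotic genes was 0.57 for CCNE1, 0.45 for CDK4 and 0.33 for CCNE2, and -0.36 for CDKN1B and -0.31 for CCND1. These are descriptions over libraries that share a group, scale and line, and no p is given. Library c of MCF10AT1, the lowest in CCNE1 in both arms, had mitotic levels of 9.71 and 8.44 against 10.2 to 11.4 in libraries a and b.

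Of 12447 genes with a mean of at least 50, those whose log2 levels ran most like each gene over the 18 libraries are named by Pearson's r, without a p since the groups and lines set most of the spread. CDK4 ran most like SSRP1 (0.97) and UMPS (0.97), CDK6 like ZNF229 (0.97) and PLEKHA5 (0.97), and CCND2 like PCYT1B (0.97) and STIP1 (0.97). CCND3 ran most like LGALS3BP (0.95) and PDLIM4 (0.94), CCNE1 like BCAS4 (0.96) and NUDT1 (0.95), CCNE2 like ATPSCKMT (0.93) and CKAP2 (0.92), and CDKN1B like CKAP5 (0.95) and TDG (0.93). CCND1, which moved least, had the lowest values, with SLC9A7 (0.83) and ENSG00000260267 (0.81), next to CDKN1C with TESMIN (0.88) and FARP1 (0.87).

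The genes lie apart in the genome (hg38): CCND1 at chr11:69641156-69654474, CCND3 at chr6:41934934-42050357, CCNE1 at chr19:29811991-29824312, CDK6 at chr7:92604921-92836573 and CDKN1C at chr11:2883213-2885775, with CCND2, CDK4 (chr12:57747727-57756013) and CDKN1B (chr12:12685498-12722369) on chromosome 12. Genes on the opposite strand overlap the ends of CDK4 (TSPAN31 and MARCHF9), CCND1 (LTO1), CCNE2 (INTS8 and NDUFAF6) and CDKN1B (GPR19), and since the strand setting of the counting was not given in the sources used here, reads of such pairs may not have been told apart. In the RefSeq promoter table (GRCh38.p14, 250 bases before the start, both strands), which matched CCND3, CCNE1, CDK4, CDK6 and CDKN1B of the genes with values, CDK4 alone held the E-box CACGTG, at 3 places, where 6.35% of 35116 promoters hold at least 1. The E2F motif (GCGCCAAA, GCGCGAAA, GCGGCAAA, GCGGGAAA and their reverse complements), AP-1 (TGACTCA) and CRE (TGACGTCA), held by 2.79%, 4.20% and 1.65% of promoters, had no match in these windows.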

How the data were processed

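RNA sequencing was done on 18 libraries, grouped by the labels into 3 lines and 2 arms with 3 libraries each. Per the labels and the study's methods, the authors pseudo-aligned reads with Kallisto 0.46.1 (hg38), summed transcripts to genes with tximport and normalized with DESeq2 1.26.0 in R 4.1.1. The methods text describes ribosomal depletion while the labels name polyA RNA, which was not settled here. The deposited normalized counts are a signal from which reads could not be recovered, so no count test was run and the depth per gene is unknown. Symbols were matched for 35894 of 35933 genes, 39 had none, and 294 that share a symbol with a gene of higher mean were not used under that symbol.

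Values were tested in R 4.3.3 with limma 3.58.1 (intensity trend) on log2 of the value plus 1, for genes averaging 10 or more across the fitted libraries, adjusted by Benjamini-Hochberg with a threshold of 0.05. Each line was fitted alone, the 9 negative CRISPR libraries together, and interaction contrasts over all 18. Tests are two-sided, the script was tested on simulated data, and intervals are 95%. Python 3.11.15, pandas 2.3.3, NumPy 2.4.6 and matplotlib 3.10.9 were used for the rest. Levels per kb divide by the canonical transcript's length.

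The genes and lists were chosen with earlier results of these data known. All 9 genes are named, and of the pathway lists up to 4 called genes per list with the largest difference, plus E2F1, CDK2, RB1, CDKN1A, SKP2, CCNA2 and MKI67. The values of 1 gene named by this rule are not reported here. The like-running genes are the 2 with the highest r. COL3A1, THY1 and CDH1 belong to the marker lists.

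Library letters come from the titles. Deviations from group means of same-letter libraries correlated at 0.22, 0.20 and 0.12 in MCF10A, 0.11, 0.29 and 0.48 in MCF10AT1 and -0.01, 0.02 and 0.05 in MCF10CA1h. Unlike letters correlated at -0.17 to 0.01 in MCF10A, -0.41 to 0.25 in MCF10AT1 and -0.12 to 0.10 in MCF10CA1h. In MCF10AT1, labelled knockdown library a ran closer to negative CRISPR library b (0.25) than to a (0.11). The letters were taken as pairing in MCF10A and, less clearly, in MCF10AT1, but not in MCF10CA1h. The main tests left the letters out in every line, and the block was run as an alternative. Alternatives covered the pseudocount, filter, trend, scaling, block, joint fit, a threshold of 0.01, each library left out and, added after the data were seen, CCND2 summed with its overlapping gene.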

Additional observations from a re-analysis of the deposited data

Results flagged for a closer look

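In 7 cases the difference between the arms itself differed between 2 lines by the interaction contrast, with limma's adjusted p under 0.05. For CDK6 the contrasts were -1.96 (MCF10AT1 minus MCF10A, adjusted p = 2.9e-05) and 1.80 (MCF10CA1h minus MCF10AT1, adjusted p = 7.1e-05), from libraries at 297 to 393 in the MCF10AT1 labelled knockdown against 905 to 1067. For CDKN1C they were 2.33 (MCF10AT1 minus MCF10A, adjusted p = 0.0204) and 3.33 (MCF10CA1h minus MCF10A, adjusted p = 0.00791), from 5.10 to 6.97 in the MCF10A labelled knockdown against 41.4 to 85.0. CCND3 gave -0.77 (MCF10CA1h minus MCF10AT1, adjusted p = 0.0428). CCND2 gave 4.46 (MCF10AT1 minus MCF10A, adjusted p = 3.7e-04) and -4.52 (MCF10CA1h minus MCF10AT1, adjusted p = 3.6e-04). Neither was kept when its overlapping gene was added, a sum too variable in MCF10AT1 to show whether CCND2 rose. In MCF10A CCND2 was at 0 to 0.95 and not tested within the line, so the first contrast sets MCF10AT1 against a floor. The 5 contrasts that involve CDK6, CCND3 or CCND2 rest on the MCF10AT1 labelled knockdown libraries, in which CDH1 was 11.6 to 79.2 against 2105 to 6138, and the part of that shift was not tested.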

How the results depend on the processing

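Single-gene values were tallied under every other setting, but of the fits without a library only the lowest and the highest value per gene and comparison. Of these 937 values, 864 kept their direction and side of the threshold and 49 kept the direction but lost the call. Of the rest, 5 gained a call and 19 changed sign, 1 of them a called value, and the cause was not tested. Calls lost in the remaining fits without a library are not in this tally, which therefore understates them. Without the filter on low values 0 G1 genes were called in MCF10A and 0 in MCF10CA1h, 1 and 3 pathway genes in MCF10AT1 and MCF10CA1h, and 2 G1 genes between MCF10AT1 and MCF10A controls. A minimum mean of 50 left 0 in MCF10A. Without the intensity trend 1 G1 gene and 6 pathway genes were called in MCF10CA1h and 2 G1 genes between MCF10AT1 and MCF10A, and equal sums left 1 in the latter. In the joint fit 12 pathway genes were called in MCF10AT1, 0 G1 genes and 1 pathway gene in MCF10CA1h, and 5 G1 genes between MCF10CA1h and MCF10AT1. A threshold of 0.01 gave 0 G1 genes in MCF10A, 1 G1 gene and 1 pathway gene in MCF10AT1, 1 and 8 in MCF10CA1h, and 0 between MCF10AT1 and MCF10A. CCND2 summed with its overlapping gene left 1 G1 gene in MCF10CA1h. With the library letter as a block, 2 G1 genes were called between MCF10AT1 and MCF10A, and 3, 8 and 14 pathway genes in the comparisons within MCF10A, MCF10AT1 and MCF10CA1h. The block took away the calls of CDK4 (adjusted p = 0.0736) and CDK6 (0.0854) between MCF10AT1 and MCF10A and of CCNE2 (0.0733) between MCF10CA1h and MCF10A, and changed no other call of a G1 gene. Between control lines the letters were not seen to pair. Same-letter deviations correlated at 0.28, -0.25 and 0.26 for MCF10AT1 and MCF10A, and at 0.11, 0.16 and -0.14 for MCF10CA1h and MCF10A. The block between lines therefore adjusts for no known pairing.

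Leaving out 1 library each, the counts of G1 genes ranged from 0 to 1 (MCF10A), 1 to 3 (MCF10AT1) and 1 to 2 (MCF10CA1h), those of pathway genes from 0 to 8, 1 to 5 and 8 to 17, and those between controls from 0 to 5 (MCF10AT1 and MCF10A), 4 to 6 (MCF10CA1h and MCF10A) and 2 to 5 (MCF10CA1h and MCF10AT1). Interaction counts ranged from 2 to 3, 1 to 1 and 2 to 3. The sign changes were CCND1 in MCF10A with equal sums (0.035), and CCND2 with a pseudocount of 0.5 (0.32, MCF10CA1h minus MCF10A effects) and as a sum (-0.26, MCF10AT1 minus MCF10A effects). The others came from fits without a library, as ranges. CCND1 went from -0.22 to 0.12 in MCF10A, -0.13 to 0.16 between MCF10CA1h and MCF10AT1 controls and -0.094 to 0.20 in their effects. CCND2 went from -0.19 to 1.07 between MCF10AT1 and MCF10A controls and -0.23 to 0.26 in MCF10CA1h minus MCF10A effects. CCNE1 went from -0.39 to 0.42 in MCF10AT1 and -0.18 to 0.62 in MCF10CA1h minus MCF10AT1 effects, and CCNE2 from -0.71 to 0.055 and -0.53 to 0.23 in the same, and from -0.38 to 0.45 between MCF10AT1 and MCF10A controls. CDK4 went from -0.18 to 0.11 in MCF10AT1 minus MCF10A effects and CDK6 from -0.32 to 0.013 in MCF10CA1h minus MCF10A effects. CDKN1B went from -0.18 to 0.12 in MCF10A, -0.34 to 0.13 in MCF10AT1, -0.35 to 0.15 in MCF10AT1 minus MCF10A effects and -0.41 to 0.058 in MCF10CA1h minus MCF10AT1 effects.

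Over all genes, the calls in MCF10A (409) became 117 without the filter, 237 without the trend, 1172 with the block and 45 at 0.01, and without 1 library 52 to 1418. Those in MCF10AT1 (2091) became 3939 with the block, 5146 in the joint fit and 1010 at 0.01, and those in MCF10CA1h (1929) 606 without the filter, 1123 without the trend, 248 in the joint fit and 799 at 0.01. Equal sums shifted the median difference of all genes from 0.02 to -0.15 in MCF10AT1 and the share of calls that were higher from 62.0% to 50.2% in MCF10CA1h and from 51.6% to 39.6% for the MCF10AT1 minus MCF10A effects.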

Other observations

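CDKN2B was not analysed here, and values of its neighbours, chosen after they were seen, are given as they stand. CDKN2B-AS1, the antisense RNA of that locus, had normalized counts between 0.78 and 13.6 in all 18 libraries. MTAP, a gene of methionine salvage on the same arm of chromosome 9, had 117, 106 and 133 in the MCF10AT1 labelled knockdown libraries and between 1.53 and 46.4 in the other 15.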
